A study of Mus musculus with 9 samples.

Results

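The 9 transcription factors described here carry the signal of the circadian clock to its target genes in liver: the REV-ERB receptors Nr1d1 and Nr1d2, the PAR bZIP factors Dbp, Tef and Hlf, their competitor Nfil3, and the repressors Bhlhe40, Bhlhe41 and Ciart. They were taken by symbol from the deposited raw counts, which list 55401 genes, and all 9 were among the 15717 genes that passed the filter on low counts. RNA of whole liver was sequenced from 9 female mice in 3 groups of 3. Healthy livers came from mice labelled WT, aged 6 weeks at the start, that had no treatment. HCC was induced in wild-type mice aged 6 weeks by a hydrodynamic tail vein injection, which carries plasmids into a part of the hepatocytes, of sleeping beauty transposon plasmids for activated AKT and NRAS. At week 1 these mice received AAV8 as an empty vector (untreated HCC) or with miR-22 under a CMV promoter (miR-22-treated HCC), and livers were taken at week 5, which was 4 weeks after the virus. The labels also list a β-catenin plasmid, whereas the study's methods name only RAS/AKT for the sequenced tumors. The strain is FVB/N in the protocol and C57BL/6 in another label field, and the virus dose differs between the labels and the methods. Both HCC groups had the injection and an AAV8 and the healthy group had neither, so tumor, injection and empty vector cannot be told apart in any comparison with healthy livers. The hour of day at which livers were taken, and when healthy livers were taken, are not given in the sources used here. These genes cycle over the day, so the hour of collection and the group cannot be told apart in any comparison. Nothing says whether mice shared a litter or cage. The p-values set differences between groups against the spread between these livers, so effects of litter or cage are not covered.

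The liver clock is a loop of transcription and repression that runs once a day. BMAL1 with CLOCK or NPAS2 binds E-boxes (CACGTG) and switches on the Per, Cry, REV-ERB, Dbp and Ciart genes. PER and CRY proteins then inhibit the complex, and REV-ERBs repress Bmal1 through RORE elements, at which the ROR receptors activate. DBP, TEF and HLF activate genes through D-boxes, which NFIL3 represses, and in liver their targets include drug-metabolizing enzymes. BHLHE40 and BHLHE41 (DEC1 and DEC2) compete for E-boxes, and CIART (CHRONO) represses BMAL1-driven transcription.

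The promoters were read for these motifs, because several of the factors are themselves E-box genes. RefSeq windows from 250 bases before to 50 bases after a transcription start were at hand for 8 of the 9 factors, 9 windows in all, and were located by exact match in GRCm39. The letters CACGTG stood in 4 of the 9 windows, of 3 genes, against 7.15% of 32851 promoter windows. Ciart had 3 copies, each Tef window had 1, and Bhlhe41 had 1. Distances are from RefSeq starts, which can differ from the GENCODE M39 gene bounds given further on, so some sites lie inside those bounds. The sites follow 5′ to 3′ on the gene's strand, with the E-box in capitals.
Ciart, 116 bases before the start, chr3:95789639-95789668, minus strand: tgcatctagagtCACGTGttgccggtaagc
Ciart, 58 bases before the start, chr3:95789581-95789610, minus strand: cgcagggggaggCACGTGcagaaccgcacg
Ciart, 44 bases before the start, chr3:95789567-95789596, minus strand: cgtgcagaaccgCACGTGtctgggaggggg
Tef, first start, 127 bases before it, chr15:81686735-81686764, plus strand: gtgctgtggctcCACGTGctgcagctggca
Tef, second start, 138 bases before it, chr15:81695465-81695494, plus strand: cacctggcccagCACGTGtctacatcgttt
Bhlhe41, 153 bases before the start, chr6:145811282-145811311, minus strand: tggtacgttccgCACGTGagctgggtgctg
The E-box variant CACGTT was in 1 window, that of Nr1d1, on the opposite strand, and in 4.68% of all windows. The RORE core TNGGTCA was in 2 windows, also on the opposite strand, and in 10.96% of all windows, and the D-box TTANGTAA was in none of the 9 and in 2.32% of all. Both strands were searched, and CACGTG reads the same on both. These sites are shown with the motif in capitals.
Nr1d1, 28 bases before the start, chr11:98666214-98666243, minus strand: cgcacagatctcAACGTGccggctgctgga
Nfil3, 12 bases before the start, chr13:53135069-53135098, minus strand: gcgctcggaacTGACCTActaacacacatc
Tef, second start, 219 bases before it, chr15:81695385-81695414, plus strand: agggacgcgacTGACCAAaaaagaacaggg
A match is a run of letters and not a measured binding site, and clock elements of Dbp and the REV-ERB genes that lie outside the windows were not searched.

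The miRNA that the vector carried was compared with the 3′ UTRs of the same genes. A miRNA pairs with mRNA mainly through its seed, bases 2 to 8 from the 5′ end, shown in capitals.
mmu-miR-22-3p: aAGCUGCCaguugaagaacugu
Its 7-base match GGCAGCT was in the 3′ UTR of 1 of the 9 factors, Tef, at position 2656 of 3182 bases, and in 14.0% of 20872 canonical transcripts (GENCODE M39).
Tef, 3′ UTR, match in capitals: ctttccactcaGGCAGCTcctacagtcct
Tef rose with miR-22, as described below.

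Healthy libraries held 18258660 to 20964551 counts, untreated HCC libraries 18293676 to 23908392 and miR-22-treated libraries 16664659 to 20459853. Akt1 averaged 2039 normalized counts in healthy livers, 28823 in untreated HCC and 16641 in miR-22-treated HCC. Nras averaged 554, 1356 and 1059, and neither gene overlapped between healthy and HCC livers. The Mir22 row was at 0 in every library, and such a library is not made to hold mature miRNA. The host transcript Mir22hg fell from 1202 ± 151 to 351 ± 81.6 in untreated HCC (log2 fold change −1.77, adjusted p = 1.3e-06) and was 598 ± 49.6 in miR-22-treated HCC (0.76, adjusted p = 0.00452). The hepatocyte marker Alb was the highest of all cell markers in each liver. Hepatocyte markers moved with the groups: 9 of 10 were called lower in untreated HCC against healthy, and 6 of 10 were called higher with miR-22 than without, where 18.1% and 8.32% of all tested genes were called in these directions (at the thresholds given below). Summed, they ran from 2721318 to 2794155 normalized counts in the healthy group, from 1082303 to 1363673 in HCC without miR-22 and from 1642003 to 2052139 with it, so the ranges did not overlap and stood in the same order as Nr1d2, Dbp, Tef, Hlf and Ciart below. Summed cholangiocyte markers ran from 570 to 812, from 64481 to 120547 and from 30304 to 52390. Most of this sum was Spp1, which averaged 520 ± 87, 89639 ± 27562 and 39135 ± 11047. Krt19 averaged 41.8, 76.7 and 74.9 and was called in no comparison, while Krt7, Epcam and Sox9 were called higher in untreated HCC. Macrophage markers summed to 7320 to 8979, 9800 to 10619 and 10881 to 11457. Neutrophil markers summed to 34.2 to 89.0, 344 to 446 and 327 to 494, with Ly6g at 0 in all healthy and untreated HCC livers. The part of these cells in the results was not tested, and in whole liver fewer cells of a type and less RNA per cell cannot be told apart.

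Of the 9 factors, 5 fell in untreated HCC against healthy livers, and 4 rose with miR-22 against untreated HCC. A gene was called at a Benjamini-Hochberg adjusted p under 0.05 over all 15717 genes (edgeR's quasi-likelihood test) and a fold change over 1.5. In untreated HCC against healthy livers, 6 of the 9 were called, Bhlhe41 higher and Nr1d2, Dbp, Tef, Hlf and Ciart lower, where 40.8% of all tested genes were called, 22.7% higher and 18.1% lower. In miR-22-treated against untreated HCC, 4 were called, all higher, namely Nr1d2, Dbp, Tef and Ciart, where 13.8% of all genes were called, 8.32% higher and 5.47% lower. In miR-22-treated HCC against healthy livers, 5 were called, Bhlhe41 higher and Dbp, Tef, Hlf and Ciart lower, where 24.0% of all genes were called, 16.9% higher and 7.05% lower. The median log2 fold change of the 9 was −1.18, 0.54 and −0.41 in these comparisons, against 0.01, 0.0 and 0.02 for all genes. Livers did not overlap between groups for 7, 5 and 7 of the 9 factors, against 65.3%, 39.3% and 48.8% of all genes. The comparisons share livers: untreated HCC serves in both of the first, and healthy livers in the first and the last. A fall in the first and a rise in the second are therefore not independent of each other.

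**Figure D1:**
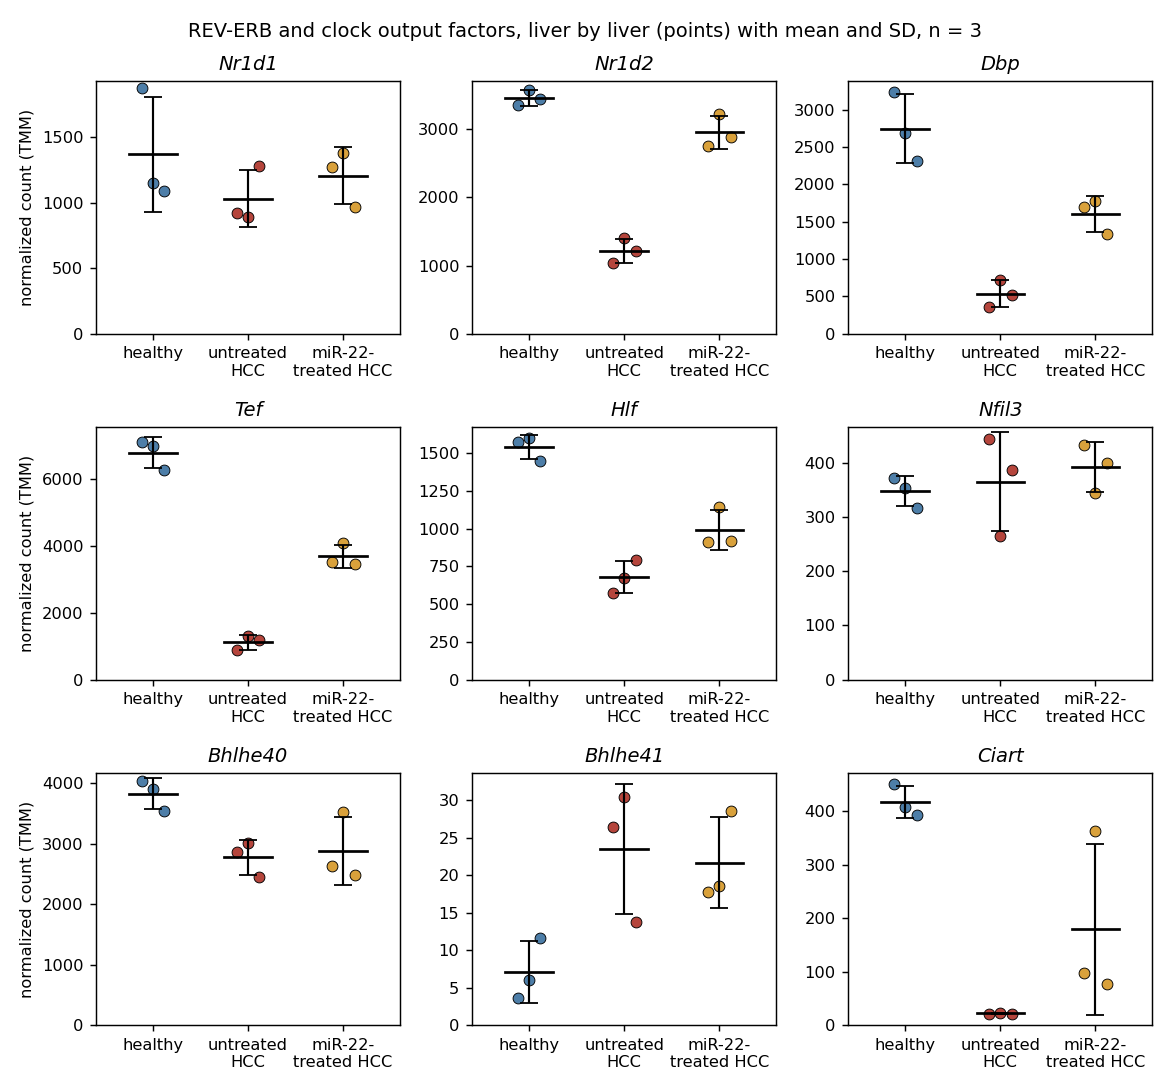
Each panel shows 1 factor, with the normalized count (TMM) of each liver as a point, the mean as a line and the SD as a bar, for 3 healthy, 3 untreated HCC and 3 miR-22-treated HCC livers. Nr1d2, Dbp, Tef and Hlf stand apart between healthy and untreated HCC livers with the miR-22-treated livers in between, Nr1d1 and Nfil3 overlap in all groups, and the miR-22-treated livers of Ciart spread from 77.5 to 363.

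Of the REV-ERB pair, Nr1d2 was called in both comparisons with untreated HCC and Nr1d1 in none, which by itself does not show that the genes differ. Nr1d2 (REV-ERBβ; ENSMUSG00000021775.11, GRCm39 chr14:4230545-4266624, plus strand) had 3352, 3578 and 3443 normalized counts in the healthy livers. It had 1039, 1398 and 1213 in untreated HCC and 2756, 3224 and 2882 in miR-22-treated HCC. All untreated HCC livers lay below all other livers, and the treated livers came up to just under the healthy range. Untreated HCC was at 35.2% of the healthy mean, and its log2 fold change was −1.51 (standard error 0.113, adjusted p = 3.5e-07). With miR-22 Nr1d2 rose by 1.28 (standard error 0.112, adjusted p = 3.1e-05) to 85.4% of the healthy mean. What was left against healthy livers, −0.23 (standard error 0.11), did not pass the test (adjusted p = 0.128).

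Nr1d1 (REV-ERBα; ENSMUSG00000020889.11, chr11:98658752-98666188, minus strand), the better known partner and a direct E-box gene, had 1876, 1151 and 1087 normalized counts in healthy livers. The untreated HCC livers had 922, 890 and 1282 and the miR-22-treated livers 1272, 1383 and 969. The groups overlapped in all 3 comparisons, and healthy replicate 1 stood above every other liver. Untreated HCC was at 75.2% and miR-22-treated HCC at 88.1% of the healthy mean. The log2 fold change in untreated HCC was −0.41 (standard error 0.207, adjusted p = 0.112), and between the HCC groups it was 0.22 (standard error 0.207, adjusted p = 0.479). Against healthy livers miR-22-treated HCC stood at −0.18 (adjusted p = 0.524), and at 0.09 (adjusted p = 0.732) without healthy replicate 1. The fall in untreated HCC ran from −0.60 to −0.13 over the alternatives described further on. Without untreated replicate 4 it was −0.60 and passed (adjusted p = 0.0341). With no filter on low counts it was −0.40 with an adjusted p of 0.00196, still under a fold change of 1.5. Nr1d1 shares 1694 of its 3242 annotated exon bases with Thra, the thyroid hormone receptor gene on the other strand. Libraries did not keep strand, so reads there cannot be told apart, and Thra averaged 296, 327 and 307 normalized counts in the 3 groups.

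The ratio of the pair within a liver, which does not depend on scaling, was added after the values had been seen. It divides counts that are not corrected for transcript length, so it serves to compare livers and does not say which gene stood higher. The ratio of Nr1d2 to Nr1d1 was 1.79, 3.1 and 3.16 in healthy livers. In untreated HCC the ratio was 1.13, 1.57 and 0.946, and in miR-22-treated HCC 2.17, 2.33 and 2.97. The log2 ratio differed by −1.13 between untreated HCC and healthy livers and by 1.05 between HCC livers with and without miR-22, with no overlap between livers (exact permutation test, two-sided, p = 0.1 each, the smallest that 3 against 3 livers allow). It differed by −0.08 between miR-22-treated HCC and healthy livers (exact permutation p = 0.8).

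Among the PAR bZIP activators, Dbp and Tef fell steeply and came part of the way back. Tef (ENSMUSG00000022389.15, chr15:81686622-81711064, plus strand) had 7117, 6983 and 6261 normalized counts in healthy livers. The untreated HCC livers had 876, 1315 and 1181, and the miR-22-treated livers 3513, 4075 and 3472. The 3 groups were wholly separate. The log2 fold change was −2.59 in untreated HCC (standard error 0.144, adjusted p = 4.4e-08), which left 16.6% of the healthy mean. With miR-22 it was 1.71 (standard error 0.14, adjusted p = 2.0e-05), which gave 54.3%. Treated livers stayed below healthy ones by −0.88 (standard error 0.137, adjusted p = 3.6e-04).

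Dbp (ENSMUSG00000059824.12, chr7:45354512-45359627, plus strand), the founding member of the family, had 3237, 2688 and 2312 normalized counts in healthy livers. It had 361, 720 and 524 in untreated HCC and 1692, 1780 and 1334 in miR-22-treated HCC, again 3 separate groups. Untreated HCC stood at 19.5% of healthy (log2 fold change −2.36, standard error 0.213, adjusted p = 1.5e-06). The miR-22-treated livers were at 58.3%, higher than untreated HCC by 1.58 (standard error 0.21, adjusted p = 4.3e-04) and lower than healthy by −0.78 (standard error 0.202, adjusted p = 0.00967). With the replicate number as a block, the last call was lost (−0.60, adjusted p = 0.104). Dbp shares 539 of 3470 exon bases with Sphk2 on the other strand, which averaged 970, 761 and 794 normalized counts and was called in none of the 3 comparisons.

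Hlf (ENSMUSG00000003949.16, chr11:90227221-90281761, minus strand) moved less. Its healthy livers had 1576, 1601 and 1451 normalized counts, untreated HCC 577, 674 and 791, and miR-22-treated HCC 909, 1142 and 916. The groups did not overlap. It fell to 44.1% of healthy in untreated HCC (log2 fold change −1.18, standard error 0.123, adjusted p = 5.0e-06). The difference between the HCC groups, 0.54 (standard error 0.123, adjusted p = 0.00814), passed the adjusted p but was under a fold change of 1.5. Leaving out untreated replicate 4 or miR-22-treated replicate 2 or 4 took it over that line, at 0.66, 0.59 and 0.59. In miR-22-treated HCC it was at 64.1% of healthy and called lower (−0.64, standard error 0.122, adjusted p = 0.00144).

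Nfil3 (ENSMUSG00000056749.7, chr13:53121245-53137010, minus strand), which represses through the same D-boxes, did not pass the test in any comparison. Healthy livers had 372, 354 and 317 normalized counts, untreated HCC 443, 264 and 387, and miR-22-treated HCC 433, 343 and 399, so all groups overlapped. Its log2 fold changes were 0.07 (standard error 0.169), 0.1 (standard error 0.167) and 0.17 (standard error 0.17), with adjusted p of 0.748, 0.701 and 0.459.

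The balance between the activators and their competitor was therefore read within each liver as the summed counts of Dbp, Tef and Hlf over Nfil3. It was 32.0, 31.7 and 31.6 in healthy livers. In untreated HCC it was 4.09, 10.2 and 6.44, and in miR-22-treated HCC 14.1, 20.3 and 14.3. On the log2 scale the means were 4.99 ± 0.00942, 2.69 ± 0.661 and 4.0 ± 0.299 (SD, n = 3). The differences were −2.3 in untreated HCC against healthy, 1.31 with miR-22 and −0.99 in miR-22-treated HCC against healthy livers. No livers overlapped between groups (exact permutation test, two-sided, p = 0.1 in each comparison, the smallest possible).

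**Figure D2:**
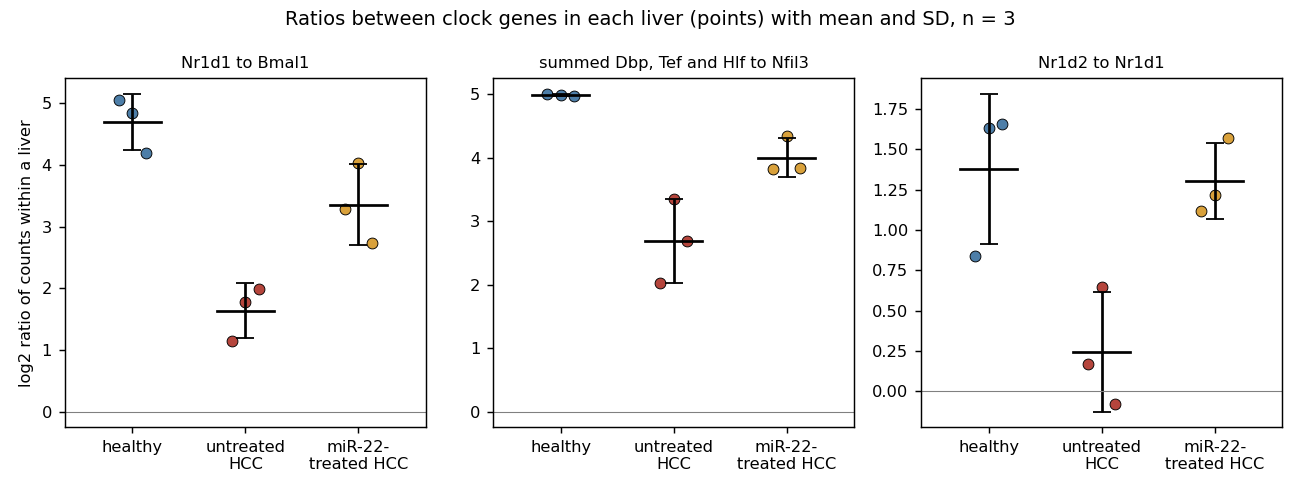
The 3 panels show log2 ratios of counts within each liver (points), with mean and SD, for Nr1d1 to Bmal1, summed Dbp, Tef and Hlf to Nfil3, and Nr1d2 to Nr1d1. Untreated HCC livers lie lowest in each panel, and in the last one miR-22-treated and healthy livers overlap.

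Of the E-box repressors, Ciart (ENSMUSG00000038550.10, chr3:95785815-95789991, minus strand), the gene with 3 CACGTG copies above, had the largest change of the 9 factors in both comparisons with untreated HCC. It had 451, 408 and 393 normalized counts in healthy livers and 21.8, 23.5 and 21.7 in untreated HCC, where it was almost equal in the 3 livers. The miR-22-treated livers had 97.6, 363 and 77.5, so replicate 3 came near the healthy range and the others did not. The log2 fold change in untreated HCC was −4.22 (standard error 0.503, adjusted p = 1.5e-05), 5.35% of the healthy mean and 49th among all falls. With miR-22 it was 2.98 (standard error 0.51, adjusted p = 0.00165), 55th among all rises, and 1.96 (adjusted p = 1.5e-04) without miR-22-treated replicate 3. Against healthy livers miR-22-treated HCC was at 42.9% and called lower (−1.24, standard error 0.414, adjusted p = 0.033). That call ended with DESeq2 (adjusted p = 0.0735), in a fit to the 2 groups alone (adjusted p = 0.0515) and with the replicate number as a block. It also ended without any 1 of the healthy replicates or miR-22-treated replicate 2 or 4 (adjusted p from 0.0648 to 0.102). Without miR-22-treated replicate 3 the call held and the difference grew to −2.26 (adjusted p = 2.5e-06).

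Bhlhe40 (DEC1; ENSMUSG00000030103.11, chr6:108636626-108644502, plus strand) had 4043, 3904 and 3545 normalized counts in healthy livers, 2870, 3014 and 2454 in untreated HCC and 2634, 3524 and 2487 in miR-22-treated HCC. Both HCC groups lay below all healthy livers and overlapped with each other. Its log2 fold change was −0.46 (standard error 0.133, adjusted p = 0.00974) in untreated HCC and −0.41 (standard error 0.133, adjusted p = 0.0289) in miR-22-treated HCC against healthy, both past the adjusted p and both under a fold change of 1.5. Between the HCC groups it was 0.05 (standard error 0.133, adjusted p = 0.817), and it turned to −0.12 without miR-22-treated replicate 3 and −0.03 without untreated replicate 4.

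Bhlhe41 (DEC2; ENSMUSG00000030256.11, chr6:145803969-145811430, minus strand) was the only one of the 9 factors called higher in HCC, and it rested on few reads. Its raw counts were 3, 5 and 11 in healthy livers, 29, 35 and 19 in untreated HCC and 16, 15 and 31 in miR-22-treated HCC. As normalized counts these were 3.66, 6.11 and 11.7, then 26.4, 30.4 and 13.8, then 17.8, 18.6 and 28.6. All HCC livers lay above all healthy livers. Of its 7158 annotated exon bases, Bhlhe41 shares 1583 with Gm43909, 463 with Gm67128, 271 with Gm67122 and 21 with Gm67129, all on the other strand, and reads there cannot be told apart. Tef, Nfil3, Bhlhe40 and Ciart likewise share from 133 to 916 exon bases with lncRNA genes on the other strand. The log2 fold change against healthy was 1.66 (standard error 0.498, adjusted p = 0.0125) in untreated HCC and 1.56 (standard error 0.508, adjusted p = 0.0296) in miR-22-treated HCC. The first call was lost without healthy replicate 1 (adjusted p = 0.0527) or untreated replicate 3 (adjusted p = 0.0517). The second was lost without healthy replicate 1 (adjusted p = 0.103), healthy replicate 2 (adjusted p = 0.0925) or miR-22-treated replicate 4 (adjusted p = 0.113). Both calls were also lost with the replicate number as a block. The HCC groups differed by −0.1 (standard error 0.431, adjusted p = 0.899). Markers of other cells moved with the same comparison. In untreated HCC against healthy livers, 4 of 5 cholangiocyte markers and all 4 neutrophil markers tested were called higher, against 22.7% of all genes. Of 7 stellate cell and fibroblast markers 4 were called higher and 2 lower, and of 9 macrophage markers 3 were called higher and 1 lower, where 18.1% of all genes were called lower. The part of these cells in the level of Bhlhe41 was not tested.

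**Figure D3:**
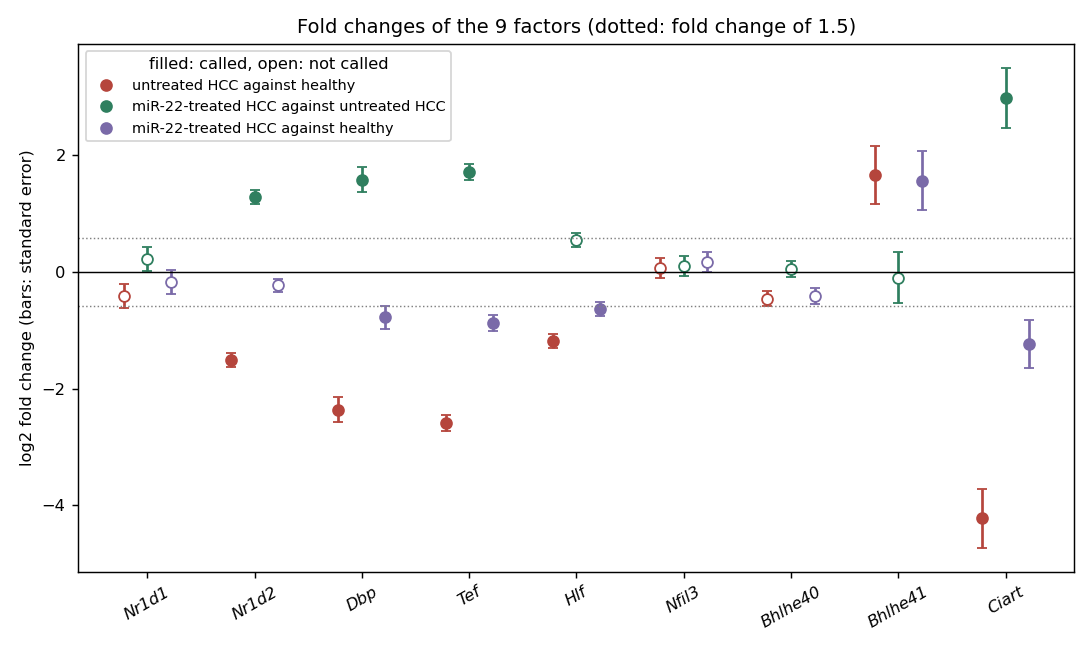
Log2 fold changes of the 9 factors on the y axis (points, with standard errors as bars) are shown for the 3 comparisons, filled where called, with dotted lines at a fold change of 1.5. Dbp, Tef, Nr1d2 and Ciart are called down in untreated HCC and up with miR-22, and Nr1d1, Nfil3 and Bhlhe40 are open in all 3 comparisons.

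Levels between genes were compared per kilobase of the canonical transcript. In healthy livers Tef (1599 ± 108 normalized counts per kilobase) and Dbp (1495 ± 253) led and overlapped. Bhlhe40 (816 ± 54.7) followed, then Nr1d2 (610 ± 20.1) and Nr1d1 (504 ± 161), which overlapped. Hlf (265 ± 13.8), Ciart (211 ± 15.2), Nfil3 (152 ± 12.4) and Bhlhe41 (1.17 ± 0.673) closed the order, each apart from the next. In untreated HCC the order changed. Bhlhe40 led with 592 ± 62 and stood above Nr1d1 at 379 ± 80. From Nr1d1 through Dbp (291 ± 97.9), Tef (265 ± 53), Nr1d2 (215 ± 31.6), Nfil3 (160 ± 40) and Hlf (117 ± 18.3), each neighbour overlapped the next. Ciart (11.3 ± 0.489) and Bhlhe41 (3.83 ± 1.41) were last. In miR-22-treated HCC Dbp (872 ± 129) and Tef (869 ± 79.5) led again and overlapped. Bhlhe40 (614 ± 119), Nr1d2 (521 ± 42.7) and Nr1d1 (444 ± 78.8) each overlapped the next. Nfil3 (171 ± 19.9), Hlf (170 ± 22.8) and Ciart (90.6 ± 80.4) likewise overlapped in turn, and Bhlhe41 was at 3.52 ± 0.984.

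The core clock genes around these factors moved in both directions. The list of 16 held 15 tested genes, Rorb being at 0 in 8 of the 9 libraries. In untreated HCC against healthy livers 5 were called higher and 5 lower (median −0.09), with miR-22 against untreated HCC 3 higher and 3 lower (median −0.11), and in miR-22-treated HCC against healthy 3 higher and 5 lower (median 0.03). The shares called over all genes, given above, were 22.7% higher and 18.1% lower, 8.32% and 5.47%, and 16.9% and 7.05%. On the activator arm, Bmal1 (listed as Arntl) had 54.9, 39.1 and 58.6 normalized counts in healthy livers, 418, 258 and 323 in untreated HCC and 129, 82.9 and 145 with miR-22. It rose by 2.7 on the log2 scale in untreated HCC (standard error 0.252, adjusted p = 1.9e-06) and dropped by 1.48 with miR-22 (standard error 0.229, adjusted p = 1.0e-03). Npas2, the partner that can replace Clock, had 2 to 4 raw counts per healthy liver, 214, 121 and 167 normalized counts in untreated HCC and 39.9, 17.3 and 32.3 with miR-22, a log2 fold change of −2.47 between the HCC groups (standard error 0.302, adjusted p = 2.7e-04). Clock was higher in untreated HCC (0.63, adjusted p = 1.7e-04), though under a fold change of 1.5 without healthy replicate 1 (0.58) or untreated replicate 2 (0.55), and at −0.46 with miR-22 (adjusted p = 0.00619), under a fold change of 1.5. Bmal2 was called higher than healthy in both HCC groups (2.14 and 1.8), and the second call was lost without healthy replicate 2 or 3 or miR-22-treated replicate 2 (adjusted p from 0.0573 to 0.0625).

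On the repressor arm, Per3 fell by 3.06 on the log2 scale in untreated HCC (adjusted p = 3.1e-07) and rose by 1.83 with miR-22 (adjusted p = 2.3e-04). Cry2 fell by 1.79 (adjusted p = 2.2e-08) and rose by 0.88 (adjusted p = 9.0e-05), and Per1 fell by 1.08 (adjusted p = 0.00972) and rose by 1.55 (adjusted p = 0.00386). Without healthy replicate 3 the fall of Per1 was −0.66 and did not pass (adjusted p = 0.0635). Per2 fell by 1.12 (adjusted p = 2.4e-05), while its value of 0.5 with miR-22 was under a fold change of 1.5. Cry1 was at −0.09 in untreated HCC (adjusted p = 0.722) and at −0.65 with miR-22 (adjusted p = 0.0418). The latter call was lost in a fit to the 2 groups alone (adjusted p = 0.0503), with the replicate number as a block (adjusted p = 0.0611) and without any 1 of the untreated replicates or miR-22-treated replicate 2 or 3 (adjusted p from 0.0575 to 0.164). Rora, a receptor that opposes REV-ERBs, was at −0.39 in untreated HCC (adjusted p = 0.00604) and 0.33 with miR-22 (adjusted p = 0.0348). Livers did not overlap in either comparison, but both values were under a fold change of 1.5 and neither was called. Of the genes for clock protein turnover, Csnk1e was called higher (0.68, and 0.54 without untreated replicate 3, under a fold change of 1.5) and Fbxl21 lower (−1.28) in untreated HCC. Csnk1d (0.36, adjusted p = 0.00209, under a fold change of 1.5) and Btrc (−0.23, adjusted p = 0.169) were not called there. Timeless, which binds clock proteins and also acts at replication forks, was at 0.13 and not called. None of these 5 genes was called with miR-22.

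The ratio of Nr1d1 to Bmal1 set a repressor beside its target in the same liver. It was 33.5, 28.6 and 18.2 in healthy livers, 2.2, 3.44 and 3.97 in untreated HCC and 9.8, 16.5 and 6.65 in miR-22-treated HCC. The log2 ratios averaged 4.70 ± 0.454, 1.64 ± 0.444 and 3.36 ± 0.656 (SD, n = 3), and differed by −3.06, 1.72 and −1.34 in the 3 comparisons. No livers overlapped (exact permutation test, two-sided, p = 0.1 each, the smallest possible). Of these differences the log2 fold changes of Nr1d1, none of which passed the test, made up −0.41, 0.22 and −0.18.

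Genes that the factors or their regulators are known to drive were counted by element, from lists written from general knowledge, which share members (Por and the Per genes stand in more than 1). Earlier results of these data were known when the lists were written, so the counts are not independent of them. The lists leave out some genes that are not reported here. The E-box list also leaves out the 9 factors and Cry1, which was counted with the RORE targets, so it does not hold every E-box gene. Of the 9 factors and Cry1, whose values are given above, Nr1d1, Nfil3, Bhlhe40 and Cry1 were not called in untreated HCC. Bhlhe41, which had a CACGTG site, was called higher there on few reads, and Nr1d2, Dbp, Tef, Hlf and Ciart were called lower. All 11 E-box output genes counted were called lower in untreated HCC (median −1.79), 9 were called higher with miR-22 (median 1.55) and none lower, and 7 were called lower than healthy with miR-22 (median −0.66). Over all genes tested, 18.1% were called lower in untreated HCC, 8.32% higher and 5.47% lower with miR-22, and 7.05% lower than healthy with miR-22. Nampt, the rate-limiting enzyme of NAD salvage, had 4039, 3971 and 3497 normalized counts in healthy livers, 976, 918 and 972 in untreated HCC and 2142, 3344 and 3096 with miR-22 (log2 fold changes −2.0 and 1.58, adjusted p = 2.6e-07 and 4.1e-05). Wee1, a cell cycle kinase, and Hes6 were at −1.62 and −0.91 in untreated HCC (adjusted p = 9.6e-06 and 1.1e-05). Hes6 was not called with miR-22 (0.19, adjusted p = 0.208). Wee1 was called higher with miR-22 (0.65, adjusted p = 0.023), with overlap between livers. That call was lost in a fit to the 2 groups alone (adjusted p = 0.0536), with the replicate number as a block (adjusted p = 0.0635) and without untreated replicate 2 or 4 or miR-22-treated replicate 3 or 4 (adjusted p from 0.0578 to 0.0769).

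Of the 14 tested D-box targets, 12 were called lower in untreated HCC (median −1.92), 10 were called higher with miR-22 (median 1.2) with none lower, and 8 were called lower than healthy with miR-22 (median −0.77), against the same 18.1%, 8.32%, 5.47% and 7.05% of all genes. Hepatocyte markers went the same ways as the E-box and D-box lists. Of 10 such markers, 9 were called lower in untreated HCC (median −1.62) and 6 higher with miR-22 (median 0.94). Whether the lists differ from these markers was not tested. Por, which passes electrons to all microsomal P450 enzymes, had 12966, 12567 and 11078 normalized counts in healthy livers, 1767, 2098 and 2537 in untreated HCC and 6264, 9076 and 7757 with miR-22 (−2.52 and 1.85, adjusted p = 1.3e-07 and 2.8e-05). Nr1i3, the xenobiotic receptor CAR, stood at −2.91 and 1.59 (adjusted p = 9.1e-07 and 8.7e-04). Its own target Cyp2b10 was at −4.39 and 3.11 (adjusted p = 1.4e-06 and 3.5e-04), and Ppara, the fatty acid receptor, at −1.92 and 1.44 (adjusted p = 8.3e-07 and 1.6e-04). Cyp2a4 and Cyp2a5 were at −1.92 and −2.09 in untreated HCC (adjusted p = 1.8e-06 and 4.3e-07), and reads of such near-identical P450 genes may be split between copies.

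The 10 RORE targets counted did not move one way. In untreated HCC 5 were called higher and 4 lower (median 0.27), with miR-22 3 higher and 3 lower (median 0.1), and against healthy 4 higher and 2 lower with miR-22 (median 0.39). Of all genes tested, 22.7% were called higher and 18.1% lower, 8.32% and 5.47%, and 16.9% and 7.05% in these comparisons. Bmal1 and Npas2, given above, are on this list. Pck1 and G6pc1 (listed as G6pc), enzymes of gluconeogenesis, went the other way, at −2.6 and −2.14 in untreated HCC (adjusted p = 1.1e-06 and 9.4e-05) and 2.74 and 2.75 with miR-22 (adjusted p = 2.0e-05 and 2.2e-04). Cidec, a lipid droplet protein, was higher than healthy by 3.39 in untreated HCC and 3.56 with miR-22 (adjusted p = 8.3e-06 and 1.8e-05). Insig2, which restrains sterol synthesis, was higher by 1.04 and 1.06 (adjusted p = 2.3e-04 and 4.9e-04), and neither was called between the HCC groups.

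**Figure D4:**
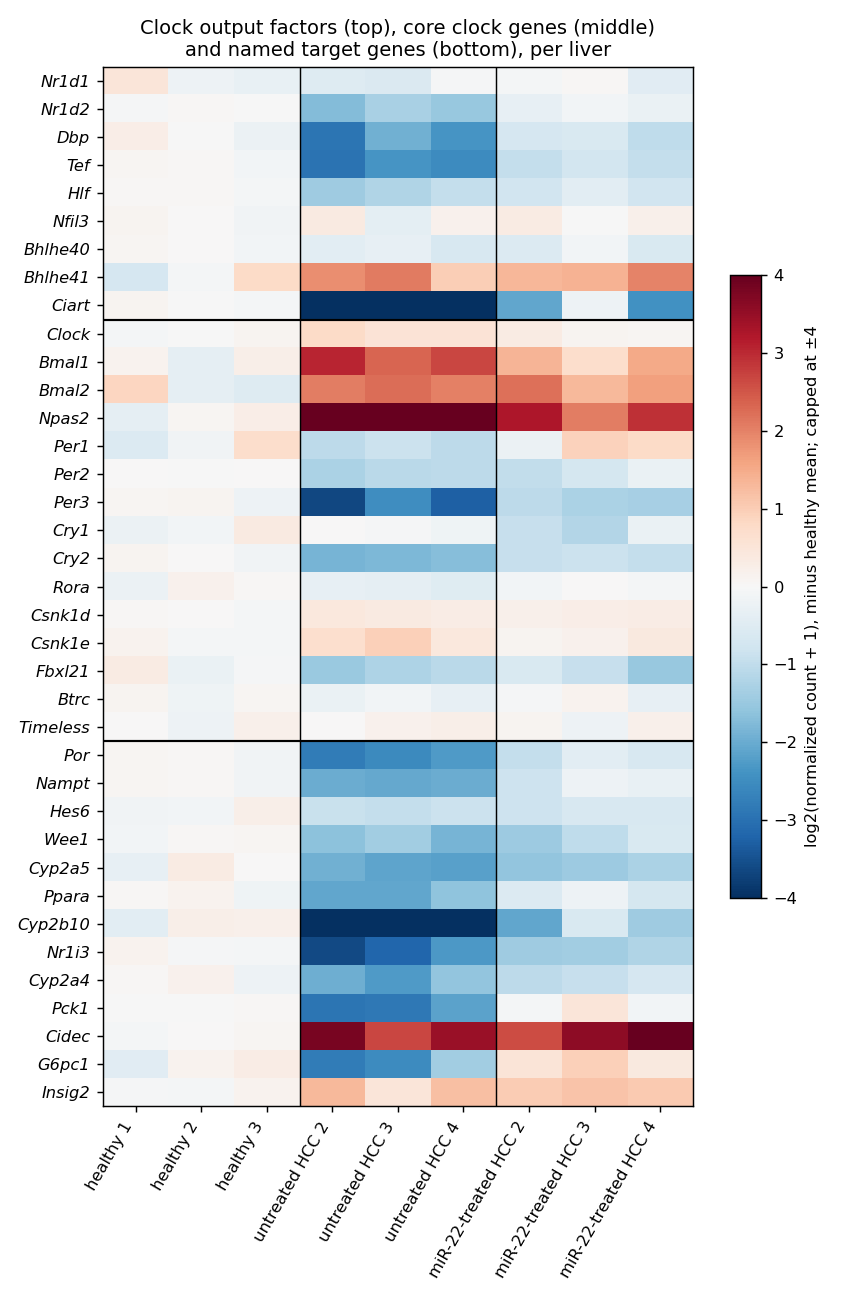
Each row is a gene (the 9 factors on top, 15 core clock genes in the middle, named targets below) and each column a liver. Color gives log2(normalized count + 1) minus the healthy mean, red above and blue below, capped at 4 either way. Dbp, Tef, Per3, Por and Cyp2b10 are blue in untreated HCC and paler with miR-22, and Bmal1 and Npas2 are red in untreated HCC and paler with miR-22.

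Profiles over the 9 livers were compared as the root mean square difference of centred log2 levels, a description without a test, over livers that share group, depth and cell makeup. Dbp was nearest to Tef among 15716 genes (0.17), and for Tef it stood next after Fn3k (0.13), which repairs glycated proteins, Por (0.162) and Nipal1 (0.165), a magnesium transporter. After Tef, Dbp was nearest to Fn3k (0.201) and Gm8941 (0.214). Hlf stood nearest to Ubr2 (0.068), Cyp2d22 (0.0715) and Peli2 (0.0851), and not to Dbp (0.591) or Tef (0.631). Nr1d2 was nearest to Gm38091 (0.136), Aamdc (0.143) and Fnip2 (0.149), and its distance to Nr1d1 was 0.598. Nr1d1 was nearest to Zbtb5 (0.144), Actr5 (0.146) and Slc25a45 (0.165). Ciart had no close profile, with Thrsp (0.431), a lipogenic thyroid hormone-responsive gene, Usp2 (0.44), a ubiquitin protease under clock control, and Mup19 (0.464) nearest. Usp2 averaged 1131 ± 109 normalized counts in healthy livers, 94.6 ± 13.8 in untreated HCC and 587 ± 338 in miR-22-treated HCC, with replicate 3 highest among the treated livers as for Ciart. Bhlhe41 was nearest to Chek1 (0.211), Mcm6 (0.215) and Mcm5 (0.234), genes of DNA replication and its checkpoint. Nfil3 was nearest to Mterf4 (0.113), 4930556M19Rik (0.135) and Cdhr5 (0.135), and Bhlhe40 to Zmym6 (0.0973), Lipt1 (0.112) and Glo1-ps (0.114).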

How the data were processed

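RNA of 9 whole livers, 3 per group, was sequenced by the study as paired reads of 150 bases from libraries that did not keep strand. Per the labels and the study's methods, the authors checked reads with FastQC 0.11.7, quantified them with Salmon (version not given in the sources used here) against GRCm39, imported gene counts with tximport and used DESeq2 1.18. The deposited raw counts are whole numbers per gene without normalization, and every result rests on them. The deposited table of normalized counts was not used. The raw counts carry no coordinates, so positions come from GENCODE M39 on GRCm39 by gene ID.

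Counts were tested with edgeR 4.0.16 in R 4.3.3 (genes kept by filterByExpr, libraries scaled by TMM, all 3 groups fitted together with no covariates, quasi-likelihood F test, two-sided), with Benjamini-Hochberg adjustment over 15717 genes. The thresholds, adjusted p under 0.05 and fold change over 1.5, are those of the study's methods. Normalized counts are TMM-scaled counts at the mean effective library size of 19401057, errors after ± are SD over 3 livers, and the common dispersion was 0.0206. Livers of a group differed by more than counting noise in every pair (chi-square per degree of freedom 6.35 to 30.2). Ratios were taken from raw counts plus 1 and compared by exact permutation tests. The test was tried on simulated counts before use. Promoter and miRNA sequences were read from RefSeq tables, the promoters made on GRCm38.p6 and located by exact match in GRCm39.

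The 9 factors and all gene lists were chosen with earlier results of these data known. Named were all 9 factors, the core clock genes, up to 4 genes with the smallest p per target list and comparison, and the 3 nearest profiles of each factor. Genes for the oncogenes, the miR-22 host gene and overlapping genes were added as checks. Some genes of the clock and target lists are not reported here and were left out of the counts of those lists. Alternatives were DESeq2 1.42.0, scaling by DESeq2 size factors or by the upper quartile, keeping all 29621 genes with a count or only the 12836 with 10 or more in each library, fitting just the groups compared, a block for the replicate number, limma-trend (limma 3.58.1), no fold threshold and each liver left out, and for ratios 10 added counts and ratios of group means.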

Additional observations from a re-analysis of the deposited data

How the results depend on the processing

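Under the alternatives tried, 262 of the counts of calls stayed within 1.5 times their value, 3 were higher and 5 lower. Of the log2 fold changes of the 9 factors 346 kept direction and side of the threshold, 4 gained a call, 16 lost it and 9 turned sign, and all 72 values of the ratios moved by less than the spread between livers. The falls of Nr1d2, Dbp, Tef, Hlf and Ciart in untreated HCC and the rises of Nr1d2, Dbp, Tef and Ciart with miR-22 were called under every alternative, with ranges of 1.18 to 1.39 for Nr1d2, 1.36 to 1.85 for Dbp, 1.56 to 1.84 for Tef and 1.96 to 3.35 for Ciart in the rise. Leaving out a liver gave 3 to 5 called factors in miR-22-treated HCC against healthy livers, 3 without healthy replicate 1, healthy replicate 2 or miR-22-treated replicate 4, with Ciart and Bhlhe41 lost each time. It gave 1433 to 2660 called genes between the HCC groups, 1433 (1018 higher, 415 lower) without miR-22-treated replicate 3. Without the fold threshold 3777 genes were called between the HCC groups, 5732 in miR-22-treated HCC against healthy livers, and 10 core clock genes between the HCC groups. The sign turned only for values that were not called, given here with their range when 1 liver is left out. They were Nr1d1 in miR-22-treated HCC against healthy (−0.34 to 0.09, the latter without healthy replicate 1) and Nfil3 in untreated HCC (−0.09 to 0.26, negative without healthy replicate 3 at −0.01 and untreated replicate 2). With miR-22 they were Nfil3 (−0.08 to 0.26, negative without untreated replicate 3), Bhlhe40 (−0.12 to 0.15, negative without miR-22-treated replicate 3 and, at −0.03, untreated replicate 4) and Bhlhe41 (−0.38 to 0.13, positive without untreated replicate 3 and, at 0.03, miR-22-treated replicate 2). Bhlhe41 could not be tested at 10 counts in every library. The causes were not tested. No source says that a replicate number marks a shared litter, batch or day. Deviations from the group means of same-numbered livers correlated at −0.121, −0.131 and −0.235 between the HCC groups and from −0.0297 to 0.0256 between healthy and HCC livers, so the numbers were not taken to pair the livers. With the replicate number as a block, 5, 4 and 2 of the 9 factors were called in the 3 comparisons in place of 6, 4 and 5. Bhlhe41 was lost from the first (adjusted p = 0.0834) and Bhlhe41 (0.156), Ciart (0.0917) and Dbp (−0.60, 0.104) from the last, in which Nr1d1 stood at 0.09. The depth limits Bhlhe41, with 3 to 35 raw counts per library.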

Other observations

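Other cell markers of whole liver are given here as values. Of all genes tested, 22.7% were called higher and 18.1% lower in untreated HCC against healthy, and 8.32% higher and 5.47% lower with miR-22 than without. Of 7 stellate cell and fibroblast markers, 4 were called higher and 2 lower in untreated HCC against healthy, 2 were called higher and 2 lower with miR-22 than without, and their summed level was 6158 to 7530 normalized counts in the healthy group, 12300 to 14498 in HCC without miR-22 and 10109 to 11762 with it. Col1a1, the main fibrillar collagen, averaged 112 ± 15.8, 3734 ± 485 and 1939 ± 458 (SD, n = 3). Of 6 endothelial markers, 3 were called lower in untreated HCC and 1 higher with miR-22, with sums of 6513 to 8147, 4131 to 5209 and 5368 to 6989. Of the 8 lymphocyte markers tested, 1 was called higher and 1 lower in untreated HCC and 1 higher with miR-22, with sums of 119 to 171, 150 to 195 and 145 to 218. Of 9 macrophage markers, 3 were called higher and 1 lower in untreated HCC and none with miR-22, and all 4 neutrophil markers tested were called higher in untreated HCC and none with miR-22. Of 5 cholangiocyte markers, 4 were called higher in untreated HCC and 3 lower with miR-22.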
